A study of Saccharomyces cerevisiae with 66 samples.

Results

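The regions described here are the nucleosome-depleted regions (NDRs, stretches of open DNA such as promoters) that lie beside the tRNA genes of budding yeast. An NDR was included when its start lay at most 1 kb upstream of the start of a nuclear tRNA gene in the sacCer3 annotation, with upstream read along the strand of the tRNA gene. This gave 242 of the 4828 NDRs, or 5.01%, beside 194 of the 275 nuclear tRNA genes. The assay, MTAC, brings M.CviPI, an enzyme that methylates cytosine in GC dinucleotides, to a chosen locus, the viewpoint (VP), by fusing it to LacI and placing LacO sites there. DNA that meets the enzyme gains 5-methylcytosine and was recovered with an antibody (MeDIP) and sequenced. Each table compared a targeted strain, which carried the array, with a control strain of the same background without it, in 2 libraries per group, and 21 such tables were used.

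All strains were W303 derivatives carrying ade2-1, can1-100 and trp1-1 together with ura3-1, his3-11,15 and the usual leu2 allele of that background. Targeted and control strains alike expressed LacI-SV40NLS-M.CviPI, integrated at ADH1 behind a lexO promoter and driven by LexA-ERHBD-VP16AD after 2 nM β-estradiol. The VPs MNR2, MBR1, LHS1, VHR1, LSM4, SHC1, PCL10, CDC43, OLE1, PUS2 and YBP2 held 256XLacO::HIS3 in MATa cells induced for 2 h, and these 11 tables shared 1 control. The titles of these libraries give no methionine state, and the paper states that the SHC1 VP was assayed without methionine. The TRP2 VP held the same array in MATa cells induced for 2 h without (-met) or with (+met) methionine, each with its own control. The MAT VP held the array at TAF2 in MATa or MAT-alpha cells carrying GAL10pr-HO::URA3, in glucose (D) or in galactose (G, where the HO endonuclease that starts mating-type switching is expressed), and each of these 4 tables had its own control with the same HO construct. The labels give 2 h of induction for these MAT libraries, targeted and control. In the methods of the switching assay, β-estradiol was present during the galactose step and the glucose step that followed it. By the methods, the galactose cultures were sampled after a pulse of HO and held both mating types, so MATa G and MATalpha G name a culture by the type it started as. The remaining 4 tables were from MATa cells with 4, 8, 16 or 256 LacO copies at YBP2 induced for 1 h, against 1 shared control. Values from tables with a shared control are given side by side and are not independent of each other. Each strain is a growing culture, so a value is an average over all cells.

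tRNA genes are short genes transcribed by RNA polymerase III (Pol III). TFIIIC binds promoter elements inside the gene, the A box and the B box, and places TFIIIB just upstream, where it recruits the polymerase. Active tRNA genes are kept free of nucleosomes, are scattered over all chromosomes, are the preferred insertion sites of Ty1 and Ty3 retrotransposons, and have been described near the nucleolus, centromeres and nuclear pores. Some of them act as barriers to silent chromatin.

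Of the 242 NDRs, 166 lay upstream of tRNA genes on the plus strand and 76 upstream of genes on the minus strand. The NDR identifiers give the low-coordinate edge, so an open region that spans the gene start meets the rule on the plus strand but often not on the minus strand. The median distance from the NDR start to the tRNA gene was 114 bp on the plus strand and 501 bp on the minus strand, and the shortest distances were 10 bp and 169 bp. A total of 76 NDRs, all on the plus strand, started 90 to 120 bp before the gene. By distance, 114 NDRs started 0 to 200 bp upstream, 63 started 201 to 500 bp upstream and 65 started 501 to 1000 bp upstream. More than 1 NDR lay upstream of 53 tRNA genes, and 9 NDRs lay upstream of a pair of tRNA genes. A protein-coding gene also started within 1 kb of 168 of the 242 NDRs, so most of them are not private to the tRNA gene. At the limit of the rule, the NDR 996 bp from YNCK0018C (tRNA-Asp) had a log2 fold change of 0.07 (SE 0.21) at the YBP2 VP, and the NDR 1001 bp from YNCO0021C (tRNA-Val), just outside it, had 0.22 (SE 0.33).

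**Figure D1:**
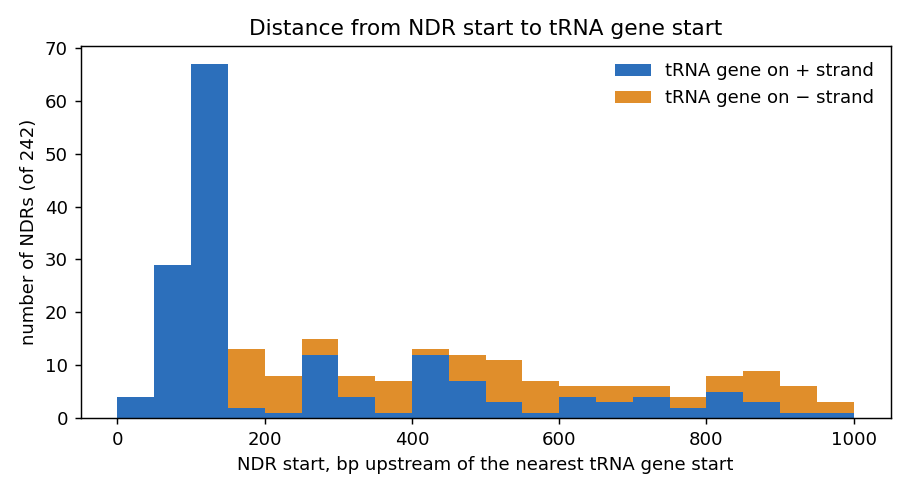
The histogram shows how far upstream of the nearest tRNA gene start each of the 242 NDRs began, in bins of 50 bp (x axis, bp; y axis, number of NDRs), with tRNA genes on the plus strand in blue and on the minus strand in orange. The peak near 100 bp holds plus-strand genes, while the minus-strand NDRs spread from 169 bp outward.

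The sequences show 2 pairs of identical tRNA genes with repeatedly called NDRs, YNCB0006W, whose NDR was called lower in 3 tables, SUP61, called only within 30 kb of the MAT VP, and the HMR gene YNCC0014W, never called. They are from RefSeq R64 (sacCer3), 5′ to 3′ on the strand of the gene. Capitals mark the match to the B box motif GTTCNANNC, which was found in 270 of the 275 nuclear tRNA genes. The first 2 lines, from chromosomes XI and VII, are identical 74-base tRNA-Val genes, and the lines for YNCJ0014C and YNCD0011W are identical 72-base tRNA-Arg genes.
YNCK0011C, tRNA-Val, chrXI:308144-308217, minus strand: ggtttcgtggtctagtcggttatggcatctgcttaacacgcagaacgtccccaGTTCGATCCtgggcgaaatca
YNCG0018C, tRNA-Val, chrVII:412294-412367, minus strand: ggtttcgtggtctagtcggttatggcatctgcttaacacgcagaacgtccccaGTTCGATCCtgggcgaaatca
YNCJ0014C, tRNA-Arg, chrX:374506-374577, minus strand: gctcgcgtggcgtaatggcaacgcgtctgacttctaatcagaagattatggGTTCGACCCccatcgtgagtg
YNCD0011W, tRNA-Arg, chrIV:568882-568953, plus strand: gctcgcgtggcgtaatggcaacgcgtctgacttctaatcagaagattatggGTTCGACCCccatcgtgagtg
YNCB0006W, tRNA-Ser, chrII:227075-227156, plus strand: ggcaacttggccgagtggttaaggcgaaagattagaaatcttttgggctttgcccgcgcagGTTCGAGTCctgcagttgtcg
SUP61, tRNA-Ser, chrIII:227942-228042, plus strand: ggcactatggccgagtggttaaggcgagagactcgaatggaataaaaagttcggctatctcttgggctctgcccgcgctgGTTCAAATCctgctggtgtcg
YNCC0014W, tRNA-Thr, chrIII:295484-295556, plus strand: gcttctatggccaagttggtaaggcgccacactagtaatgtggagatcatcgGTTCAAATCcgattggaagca
Identical gene copies stand in different surroundings, and the NDR windows beside them differ. The next 4 lines give the 200 bases from the low-coordinate edge of an NDR on the strand of its tRNA gene, with each GC dinucleotide, the site of M.CviPI, in capitals, for a pair of NDRs that were repeatedly higher and a pair that were repeatedly lower in the targeted strains.
NDR 512 bp before YNCK0011C, chrXI:308729-308928, minus strand, 14 GC sites: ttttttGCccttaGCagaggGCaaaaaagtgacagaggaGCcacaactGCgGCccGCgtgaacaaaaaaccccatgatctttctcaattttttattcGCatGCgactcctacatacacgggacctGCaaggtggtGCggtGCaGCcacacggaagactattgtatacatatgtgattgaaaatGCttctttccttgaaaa
NDR 831 bp before YNCG0018C, chrVII:413198-413397, minus strand, 13 GC sites: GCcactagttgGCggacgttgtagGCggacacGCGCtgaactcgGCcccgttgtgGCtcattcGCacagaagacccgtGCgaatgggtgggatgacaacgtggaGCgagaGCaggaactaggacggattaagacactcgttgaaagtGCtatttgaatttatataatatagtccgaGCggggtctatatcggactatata
NDR 110 bp before YNCB0006W, chrII:226965-227164, plus strand, 8 GC sites: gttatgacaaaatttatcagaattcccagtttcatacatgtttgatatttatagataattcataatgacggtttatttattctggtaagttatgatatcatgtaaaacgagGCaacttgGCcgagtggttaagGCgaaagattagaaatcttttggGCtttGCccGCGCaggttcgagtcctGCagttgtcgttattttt
NDR 146 bp before YNCD0011W, chrIV:568736-568935, plus strand, 10 GC sites: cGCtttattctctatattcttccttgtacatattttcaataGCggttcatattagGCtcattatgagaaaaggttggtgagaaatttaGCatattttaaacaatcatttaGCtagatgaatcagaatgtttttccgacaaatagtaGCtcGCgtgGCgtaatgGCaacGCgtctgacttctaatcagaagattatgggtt
The YNCB0006W window holds the whole tRNA gene and the YNCD0011W window its first part, since these NDRs start shortly before the gene. The windows beside the tRNA-Val genes contain none of the gene.

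In the first 300 bp after the NDR start, the median number of GC sites was 10 in the tRNA gene NDRs and 11 in the other NDRs, and none of the 242 lacked a site. The B box motif, searched on both strands, was present in 46.7% of the tRNA gene NDRs, against 10.1% of other NDRs and 11.9% of all NDR windows of that length. It was present in 89.5% of the NDRs that started 0 to 200 bp upstream, in 4.76% at 201 to 500 bp and in 12.3% at 501 to 1000 bp. Only 36.0% of the tRNA gene NDRs had windows in which every 50-base stretch occurred once in the genome, against 93.8% of other NDRs, and in 44 of them fewer than 50% of the stretches were unique. A Ty element or one of its long terminal repeats (LTRs) lay within 500 bp of 62.4% of the tRNA gene NDRs and of 6.15% of all NDRs. Within 30 kb of a centromere lay 18.6% of the tRNA gene NDRs and 8.51% of all NDRs, and within 30 kb of a chromosome end lay 2.07% and 6.34%.

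Across the tables, the NDRs beside tRNA genes were seldom called beyond 30 kb of the VP. An NDR was called higher or lower in the targeted strain if its log2 fold change was above 0.7 or below -0.7 with an adjusted p under 0.05. Of the 242, 20 were called higher and 21 lower in at least 1 of the tables (21 in all), 4 of them in both directions, and 205 were called in none. By this count 15.3% were called at least once, against 16.9% of all NDRs. In the tables deposited for the 11 VPs at 2 h, 0.833% of the 2642 pairs of tRNA gene NDR and VP were called higher, against 1.82% of the pairs of all NDRs. For lower calls the shares were 0.871% and 0.443%. The 22 higher calls came from 9 NDRs and the 23 lower calls from 18 NDRs, beside 961 higher calls on 390 NDRs and 234 lower calls on 139 NDRs over all NDRs. By strand, 18 higher and 3 lower calls were made in 826 pairs upstream of minus-strand genes (2.18% and 0.363%), and 4 higher and 20 lower calls in 1816 pairs upstream of plus-strand genes (0.22% and 1.1%). With the trend of the log2 fold change with base mean removed, the 22 and 23 calls became 3 higher and 38 lower. With the 405 NDRs 1 kb to either side of the gene counted, they became 64 higher and 38 lower. No share over all NDRs is given here with the trend removed, and no number of pairs for the 405. These 2 changes in the counts therefore have no background beside them. The 163 NDRs found only downstream of a gene start had 42 higher and 15 lower calls in 1781 pairs (2.36% and 0.842%).

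The counts differed widely between VPs. At the SHC1 VP, 5 of the 242 tRNA gene NDRs were higher and 7 lower, while 4.1% and 0.978% of all NDRs were called in these directions. At the LSM4 VP, 3 of 242 were higher and 9 lower, with 4.16% and 1.41% of all NDRs called. At the LHS1 VP, 5 of 238 were higher and 5 lower, with 3.67% and 0.792% of all NDRs called. In these 3 tables the share called higher was 1.24% to 2.1% of the tRNA gene NDRs, below the share of all NDRs, and the share called lower was 2.1% to 3.72%, above it. At the YBP2 VP, 2 of 238 were higher and 1 lower, against 2.42% and 0.375% of all NDRs. At the CDC43 VP, 3 of 241 were higher and 0 lower, against 2.43% and 0.312% of all NDRs. At the VHR1 VP, 2 of 242 were higher and 1 lower, against 1.17% and 0.354%, shares of 0.826% and 0.413% for the tRNA gene NDRs. At the MBR1 VP, 2 of 242 were higher and 0 lower, against 0.604% and 0.291% of all NDRs.

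The other 4 of these VPs gave no call. The backgrounds for higher and lower calls there were 0.625% and 0.0208% at PUS2, 0.188% and 0.104% at OLE1, 0.499% and 0.187% at PCL10, and 0.146% and 0.0417% at MNR2. By the unadjusted test of the log2 fold change over its SE, at p under 0.05, 10 tRNA gene NDRs (4.18%) were above 0 and 39 (16.3%) below 0 at PUS2, against 8.56% and 6.04% of all NDRs. At OLE1 they were 5 (2.1%) and 32 (13.4%), against 5.83% and 4.81%. At PCL10 they were 8 (3.31%) and 9 (3.72%), against 6.34% and 3.45%, and at MNR2 3 (1.26%) and 5 (2.1%), against 1.9% and 1.75%. At CDC43 15 (6.22%) lay above 0 and 22 (9.13%) below, against 10.4% and 3.97% of all NDRs. At MBR1 they were 8 (3.31%) and 15 (6.2%), against 5.85% and 3.35%. At YBP2, SHC1, LSM4, VHR1 and LHS1, 2.94% to 7.02% lay above 0, against 7.98% to 14.3% of all NDRs. Below 0 at these VPs lay 5.88% to 18.6%, against 3.21% to 7.45%.

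**Figure D2:**
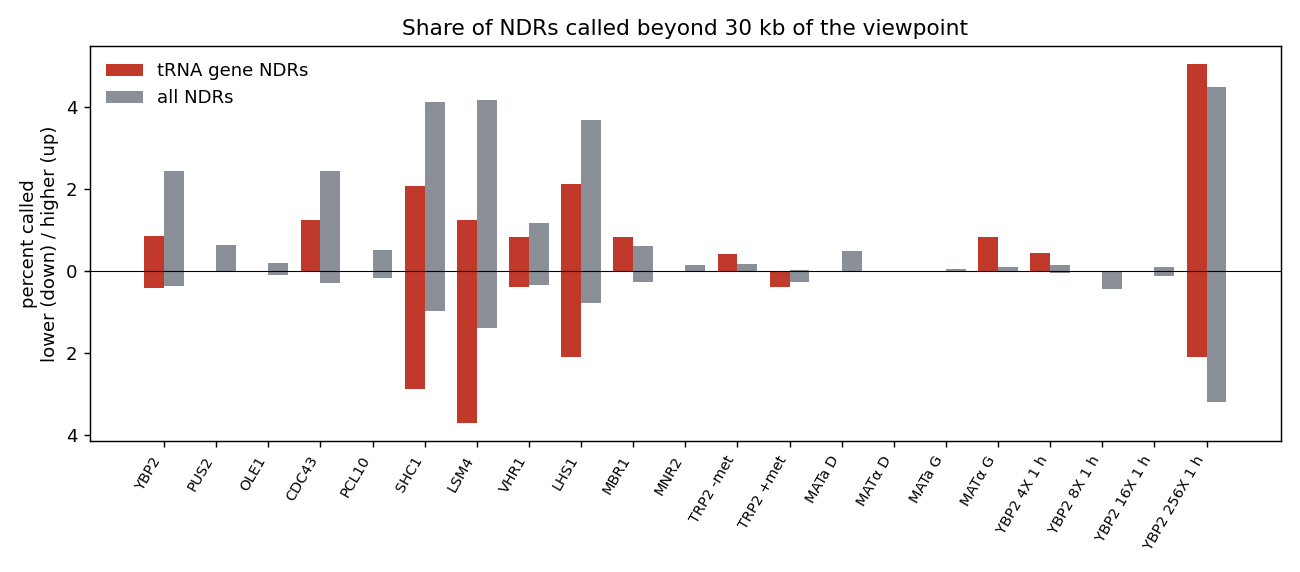
Bars give the percentage of NDRs called higher (up) or lower (down) in the targeted strain beyond 30 kb of the VP in each of the 21 tables, for the tRNA gene NDRs (red) beside all NDRs (grey). At SHC1, LSM4 and LHS1 the red bars are shorter than the grey bars upward and longer downward, and at 256 LacO copies after 1 h the red bar reaches 5.04% upward.

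The values of the tRNA gene NDRs as a whole lay below those of all NDRs in the same 11 tables. The median log2 fold change of the tRNA gene NDRs was lowest at PUS2, at -0.29, and highest at MNR2, at -0.02, while the median of all NDRs lay between -0.03 and 0.01. It was -0.26 at both SHC1 and LSM4, -0.23 at OLE1, -0.21 at LHS1, -0.17 at MBR1, -0.14 at YBP2 and VHR1, -0.11 at CDC43 and -0.10 at PCL10. Taking for each NDR its median over the 11 tables, 182 of the 242 (75.2%) were below 0, against 54.1% of all NDRs, and these values all rest on the 1 shared control. The derived level was also lower beside tRNA genes: at SHC1 the median was 25.7 normalized reads in the targeted strain and 31.2 in the control, against 36.7 and 37.0 over all NDRs. At PUS2 it was 36.4 in the targeted strain and 42.2 in the control, against 49.5 and 49.1 over all NDRs.

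**Figure D3:**
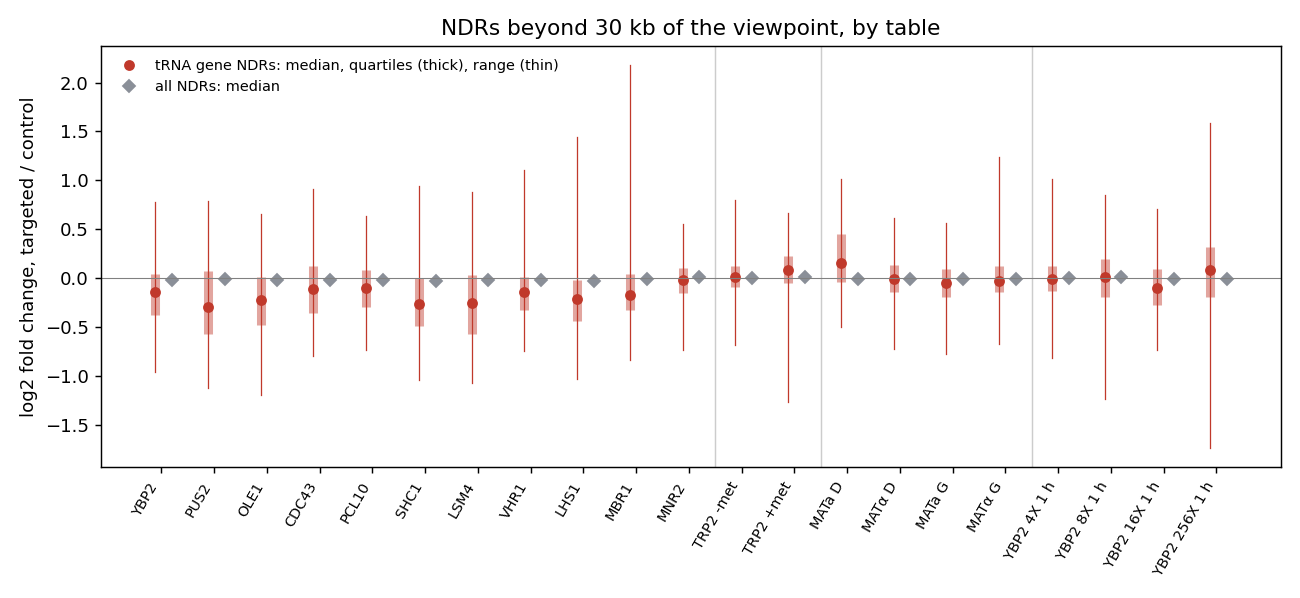
For each table, the red point is the median log2 fold change (targeted over control) of the tRNA gene NDRs beyond 30 kb of the VP, the thick bar its quartiles and the thin line its range, and the grey diamond is the median of all NDRs. Vertical lines separate the sets of tables, and the red points lie below the diamonds in all 11 tables at the left, from -0.29 at PUS2 to -0.02 at MNR2.

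The shift was smaller beyond 500 bp from the tRNA gene, in zones set after the values were seen. The NDRs that started 0 to 200 bp upstream, which mostly held the B box, had medians between -0.37 (LSM4) and -0.06 (MNR2) over the 11 VPs at 2 h. Those at 201 to 500 bp had medians between -0.38 (PUS2) and -0.06 (MNR2), and those at 501 to 1000 bp between -0.16 (PUS2) and 0.06 (MNR2). The calls also differed by zone. In the nearest zone, 1 of 1249 pairs was called higher and 11 lower. In the middle zone, 8 of 688 were higher and 9 lower, and in the farthest zone 13 of 705 were higher and 3 lower. The farthest zone thus reached 1.84% higher calls, close to the 1.82% of all NDRs, whereas the nearest zone reached 0.0801%. Lower calls reached 0.881%, 1.31% and 0.426% from the nearest to the farthest zone, against 0.443% of all NDRs. In the same order, the higher calls came from only 1, 3 and 5 NDRs and the lower calls from 7, 8 and 3. Calls of 1 NDR at several VPs share the control and are not separate. The zones differed in other ways too. Fully unique windows made up 7.02% of the nearest zone, 57.1% of the middle zone and 66.2% of the farthest. Plus-strand genes accounted for 102 of 114, 37 of 63 and 27 of 65 NDRs. The part of distance, strand and unique sequence in these contrasts was not tested.

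**Figure D4:**
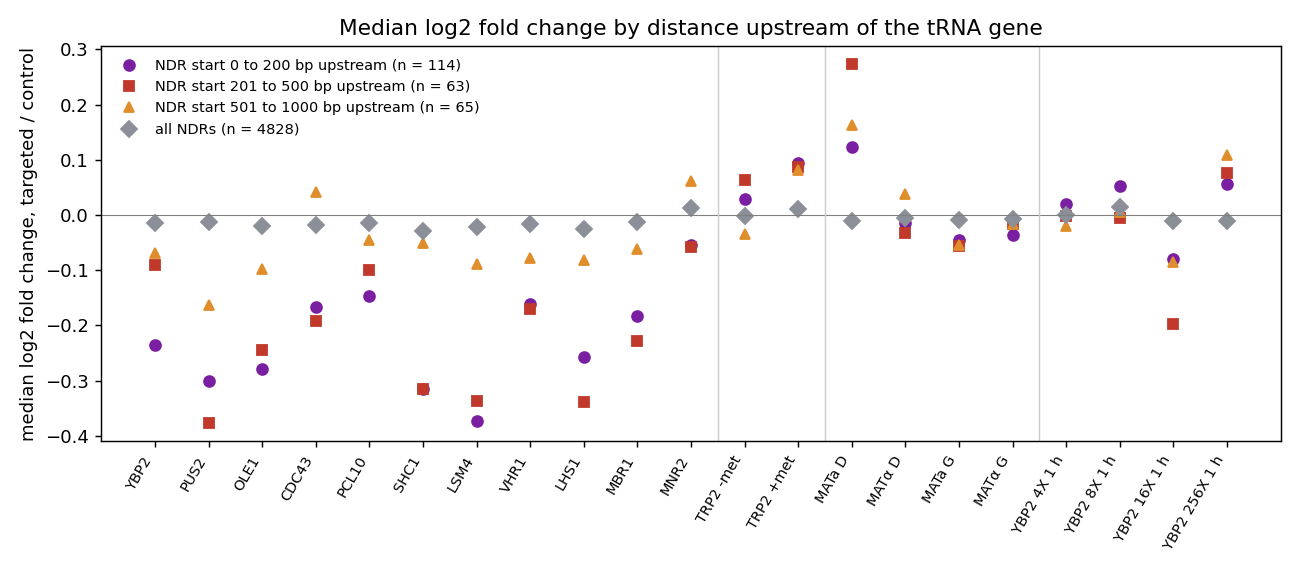
Median log2 fold change (y axis, targeted over control) of tRNA gene NDRs that started 0 to 200 bp (purple circles, n = 114), 201 to 500 bp (red squares, n = 63) or 501 to 1000 bp (orange triangles, n = 65) upstream of the gene, and of all NDRs (grey diamonds), in each of the 21 tables. Over the 11 VPs at 2 h the orange triangles lie nearer to the grey diamonds than the purple circles do in every table, while in the MATa D table all 3 zones lie above 0, between 0.12 and 0.27.

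Several measured features moved with these shifts. NDRs within 500 bp of a Ty element or LTR had medians of -0.36 to -0.02 over the 11 VPs when beside a tRNA gene (151 NDRs) and -0.31 to -0.01 when not (146 NDRs). The 91 tRNA gene NDRs farther from such elements had medians of -0.18 to -0.04, against -0.01 to 0.02 for the 4440 NDRs that were near neither. The 87 tRNA gene NDRs with fully unique windows had medians of -0.19 to 0.01, and the 44 with under 50% unique stretches -0.50 to -0.01. Of the 22 higher calls, 21 were in the fully unique group, 2.21% of its 950 pairs, beside 3 lower calls (0.316%). The group with under 50% unique stretches had 0 higher and 6 lower calls in 476 pairs (0% and 1.26%). Over all NDRs these shares were 1.82% and 0.443%. Levels moved with the shift as well: the log2 fold change rose with the base mean over all NDRs in 10 of these 11 tables, with Spearman coefficients of 0.42 to 0.60 as a description over NDRs of 1 table, and 0.0089 at MNR2, and 21.9% to 26.4% of the tRNA gene NDRs ranked in the top 30% by base mean. The part of Ty proximity, of repeated sequence and of level in the shift was not tested. The 45 tRNA gene NDRs within 30 kb of a centromere had medians of -0.32 to -0.03, against -0.04 to 0.02 for all 411 NDRs there.

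Open regions on the other side of the gene start were compared because of the strand asymmetry of the rule. Beside minus-strand tRNA genes, 130 NDRs that only started downstream of the gene start had medians of -0.32 to -0.02 over the 11 VPs, beside -0.29 to -0.05 for the 166 plus-strand NDRs under the rule. The calls of these groups differed in direction, with 26 higher and 15 lower in 1419 pairs (1.83% and 1.06%) for the 130 NDRs, and 4 higher and 20 lower in 1816 pairs for the 166. Beside plus-strand genes, where such an NDR starts inside or beyond the gene, 35 NDRs had medians of -0.01 to 0.19, with 16 higher and 0 lower calls in 384 pairs (4.17% and 0%). Over all NDRs the shares were 1.82% higher and 0.443% lower. An NDR can be called at several of these VPs, which share 1 control, so the calls are not separate sites.

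Among the NDRs called higher in 3 or more tables beyond 30 kb, a pair lay beside identical tRNA-Val genes. The NDR 512 bp before YNCK0011C, within 1 kb of the start of YKL068W-A, was called higher in 5 tables. At the MBR1 VP, 43.4 kb away on chromosome XI, its derived level was 1692 normalized reads in the targeted strain and 374 in the control, a log2 fold change of 2.18 (SE 0.22, adjusted p = 6.27e-20). On other chromosomes its log2 fold change was 0.94 (SE 0.14) at SHC1, 0.76 (SE 0.19) at YBP2, 0.80 (SE 0.16) at TRP2 -met and 0.82 (SE 0.24) at YBP2 after 1 h with 256 LacO copies. Those tables rest on 3 separate controls. With the trend with base mean removed, only the call at MBR1 held (2.02), and the values were 0.57 at SHC1, 0.32 at YBP2, 0.66 at TRP2 -met and 0.39 at YBP2 after 1 h. Its value as deposited was above 0 in all 21 tables, and was lowest at TRP2 +met (0.04).

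The NDR 831 bp before YNCG0018C lies within 1 kb of the start of RIM8, a gene of the pH-sensing pathway, and had 597 normalized reads on average over the 11 VPs. It was called higher at 4 distant VPs, with log2 fold changes of 1.45 (SE 0.17) at LHS1, 1.11 (SE 0.14) at VHR1, 0.91 (SE 0.16) at CDC43, 198.6 kb away, and 0.77 (SE 0.20) at MBR1. At LHS1 the derived level was 994 in the targeted strain and 364 in the control (adjusted p = 1.51e-14). With the base mean trend removed, the calls at LHS1 (1.05) and VHR1 (0.90) held and those at CDC43 (0.61) and MBR1 (0.61) did not. All these calls rest on the same control, and in the MAT and TRP2 tables its log2 fold change lay between -0.33 and 0.17 with no call. Of the 13 nuclear genes with the sequence of YNCK0011C and YNCG0018C, 12 NDRs upstream met the rule. Their medians over the 11 VPs ran from -0.41 to 0.71, 8 of 12 below 0, and the NDR 893 bp before YNCM0029C was called lower at SHC1 (-0.97, SE 0.32). NDRs beside an identical tRNA gene thus lay on both sides of 0.

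YNCJ0014C and YNCD0011W are identical, and each is followed by a tRNA-Asp gene whose start also meets the rule. The NDR 331 bp before YNCJ0014C, near the start of LOH1, was called higher at LHS1 (1.00, SE 0.26), LSM4 (0.88, SE 0.25) and SHC1 (0.81, SE 0.28), and its log2 fold change was at least 0.55 at all 11 VPs. The NDR 146 bp before YNCD0011W was called lower at LSM4 (-0.97, SE 0.24), SHC1 (-0.80, SE 0.26) and VHR1 (-0.71, SE 0.22), and was at most -0.32 at all 11. At LSM4 the first had 101 normalized reads in the targeted strain and 54.9 in the control, and the second had 70.8 in the targeted strain and 139 in the control. Over the 9 NDRs beside the 11 copies of this gene the medians ran from -0.71 to 0.62, with 7 below 0. The NDR 444 bp before another copy, YNCE0010W, was called lower at LSM4 (-1.004, SE 0.35).

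The other NDRs called higher in at least 3 tables lay beside tRNA-Met and tRNA-Gln genes. The NDR 759 bp before EMT5, an elongator tRNA-Met gene, shares its neighbourhood with the start of RNR2, which encodes a small subunit of ribonucleotide reductase. It was called higher at LHS1 (0.84, SE 0.18), at YBP2 after 2 h (0.78, SE 0.19) and at YBP2 after 1 h (0.85, SE 0.24). A nearer NDR of the same gene, 341 bp upstream, averaged 425 normalized reads over the 11 VPs and was called nowhere, with a median log2 fold change of 0.49. The NDR 471 bp before IMT2, an initiator tRNA-Met gene, lies near the starts of PEX25 and the arginase gene CAR1. It was called higher at SHC1 (0.73, SE 0.17), CDC43 (0.72, SE 0.17) and LSM4 (0.70, SE 0.18). The NDR 701 bp before YNCL0009C (tRNA-Gln) was called higher at LHS1 (0.81, SE 0.21), VHR1 (0.81, SE 0.19) and SHC1 (0.71, SE 0.21). At SHC1 and LSM4 the NDR 461 bp before YNCO0018W (tRNA-Asn), near the vacuolar channel gene YVC1, was also called, at 0.84 (SE 0.17) and 0.88 (SE 0.17). Single calls fell on YNCP0010W (tRNA-Lys) at CDC43 (0.79, SE 0.18) and YNCB0002W (tRNA-Phe) at LHS1 (0.81, SE 0.20), and YNCB0002W, 103 bp from its gene, was the 1 higher call of the nearest zone. None of the higher calls beside YNCJ0014C or in this paragraph at the 11 VPs held with the base mean trend removed.

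Lower calls were recurrent at only 2 NDRs in 3 or more tables, and both started just before the gene. Beside YNCD0011W stood the NDR 110 bp before YNCB0006W (tRNA-Ser), called lower at LHS1 (-0.996, SE 0.27), SHC1 (-0.91, SE 0.28) and YBP2 (-0.84, SE 0.27). At LHS1 its level was 49.7 normalized reads in the targeted strain and 99.1 in the control (adjusted p = 0.00667). It was below 0 at all 11 VPs, with -0.39 the highest, but in the MATa D table, with another control, it was 0.53 and not called. With the base mean trend removed, its calls at LHS1 and SHC1 held and that at YBP2 (-0.94) did not.

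The other lower calls at the 11 VPs lay beside the genes that follow. At SHC1 they lay beside YNCM0029C and YNCN0011W (-0.73, SE 0.21), YNCD0001W (-0.82, SE 0.28), YNCK0012C (-0.88, SE 0.29) and YNCD0008W (-0.88, SE 0.26). At LSM4 the lowest were beside YNCJ0006W (-1.08, SE 0.37), YNCD0026W (-1.06, SE 0.37) and YNCE0010W, and the others beside YNCL0038W (-0.99), SUP5 (-0.97), YNCG0011W (-0.96), the tyrosine suppressor gene SUP11 (-0.91) and SUF17 (-0.82). At LHS1 they lay beside YNCL0001W (-1.03, SE 0.34), SUP51 (-0.99, SE 0.31), YNCD0017W (-0.84, SE 0.28) and YNCD0008W (-0.77, SE 0.24). Only 2 of the 23 lower calls at the 11 VPs had an adjusted p under 0.01. With the base mean trend removed, the LSM4 calls beside YNCJ0006W (-0.78), YNCD0026W (-0.63), YNCE0010W (-0.83), YNCL0038W (-0.90) and SUP11 (-0.91) did not hold. Neither did the LHS1 call beside SUP51 (-0.96). The LSM4 calls beside YNCD0011W, SUP5, YNCG0011W and SUF17 held, as did the lower calls at SHC1. At LSM4, YNCD0026W rests on 5.44 normalized reads in the targeted strain and 11.3 in the control.

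**Figure D5:**
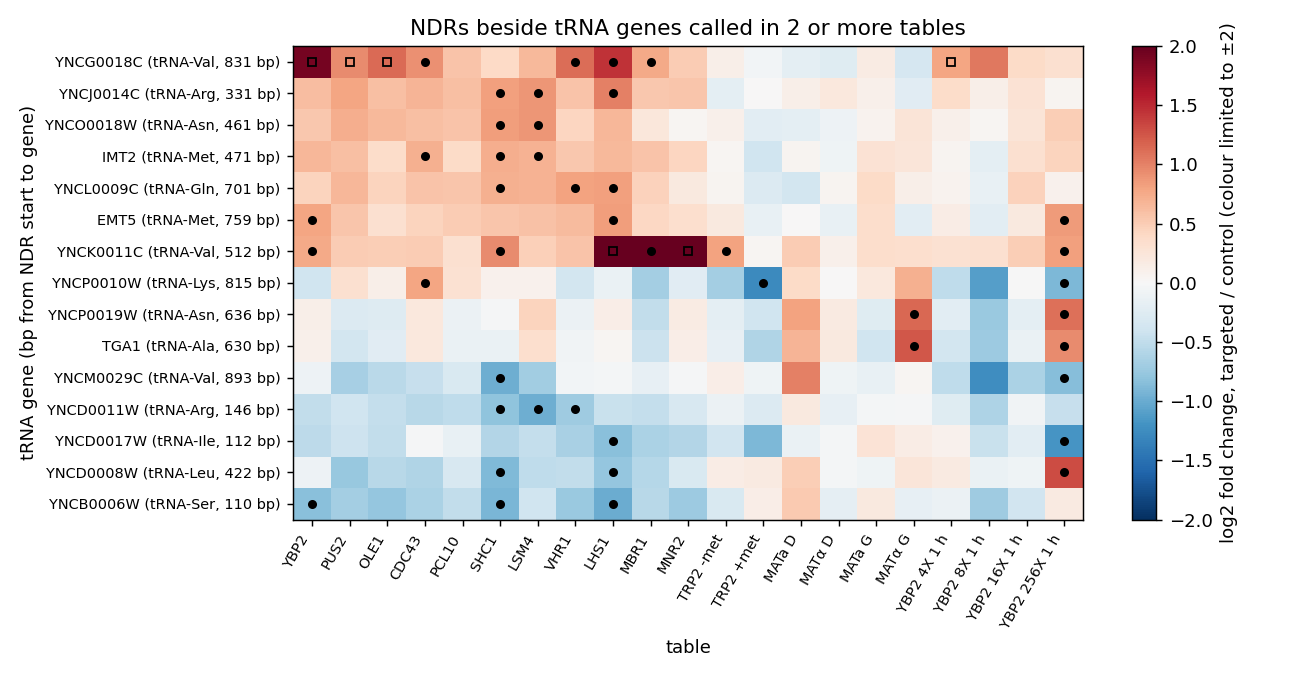
Each row is an NDR called in the same direction in 2 or more tables beyond 30 kb of the VP. Rows are named by tRNA gene, isotype and distance, each column is a table, and the colour is the log2 fold change (targeted over control, limited to ±2). NDRs called once in each direction, or only within 30 kb, are not shown. Filled circles mark calls beyond 30 kb of the VP and open squares calls within it. The upper rows are red and the lower rows blue over the 11 VPs at the left, and several rows change colour in the tables with other controls.

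Within 30 kb of a VP the tRNA gene NDRs were in part called higher. Between 0 and 4 of them lay there in each table. In all tables together, 11 of 40 local pairs were called, all higher (27.5%), against 167 of 556 local pairs called higher over all NDRs (30.0%). The NDR beside YNCK0011C had log2 fold changes of 3.26 (SE 0.32) at LHS1, 11.0 kb away, and 2.75 (SE 0.21) at MNR2, 10.5 kb away. Its level was 5721 normalized reads in the targeted strain and 597 in the control at LHS1, and 3215 and 479 at MNR2. These were the largest log2 fold changes of any tRNA gene NDR in the 21 tables. YNCG0018C was 15.0 kb from YBP2 (1.91, SE 0.19), 12.7 kb from OLE1 (1.14, SE 0.24) and 29.8 kb from PUS2 (0.94, SE 0.24). The NDR 823 bp before YNCG0017W, a further copy of the tRNA-Arg gene, was 6.49 kb from YBP2 (1.43, SE 0.22) and 4.18 kb from OLE1 (1.40, SE 0.25). At CDC43 the 1 local tRNA gene NDR, 98 bp before YNCG0008W and 9.22 kb away, was called as well (0.80, SE 0.20). Of the 4 local NDRs at LHS1 and at MNR2, 1 was called at each, beside 14 of 31 and 8 of 29 of all local NDRs.

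With the TRP2 VP, 1 of 242 tRNA gene NDRs was higher and 0 lower without methionine, against 0.167% and 0% of all NDRs. That call was YNCK0011C, with 333 normalized reads in the targeted strain and 191 in the control. With methionine, 0 were higher and 1 lower, against 0.0208% and 0.271% of all NDRs. The lower call was the NDR 815 bp before YNCP0010W, within 1 kb of the start of RPA135, the second largest subunit of RNA polymerase I, at -1.27 (SE 0.26, adjusted p = 0.000677). It had 55.6 normalized reads in the targeted strain and 134 in the control. The medians of the tRNA gene NDRs were 0.02 without and 0.09 with methionine, above those of all NDRs (-0.0018 and 0.01). At unadjusted p under 0.05, 3 NDRs lay above 0 and 1 below 0 without methionine (1.24% and 0.413%, against 1.67% and 0.291% of all NDRs). With methionine, 5 lay above and 8 below 0 (2.07% and 3.31%, against 0.999% and 4.39%). The difference between the conditions was tested through their separate controls and gave 0 of 242 at an adjusted p under 0.05, against 0.0414% of all NDRs, and 2 at unadjusted p under 0.05, 1 in each direction (0.413% each, against 1.55% higher and 0.228% lower without methionine over all NDRs).

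At the MAT VP the tRNA gene NDRs lay above all NDRs in 1 of the 4 tables and close to them in the others. In MATa cells in glucose the median of the tRNA gene NDRs was 0.15, against -0.01 for all NDRs, and 19 were above 0 (7.88%) and 0 below at unadjusted p under 0.05, against 2.69% and 1.02% of all NDRs. Yet 0 of 241 were called in either direction beyond 30 kb, against 0.48% higher and 0% lower over all NDRs. In MATalpha cells in glucose the median was -0.01, 0 were called against 0% and 0%, and 2 (0.83%) above 0 and 1 (0.415%) below passed the unadjusted test, against 0.125% and 0.188% of all NDRs. The medians were -0.05 in MATa G and -0.03 in MATalpha G. In MATa G, 0 were called higher or lower, against 0.0417% and 0% of all NDRs, with 2 (0.83%) above 0 and 1 (0.415%) below at unadjusted p, against 1.52% and 0.917%. In MATalpha G, 2 were called higher and 0 lower, against 0.0834% and 0% of all NDRs, with 4 (1.66%) above 0 and 2 (0.83%) below at unadjusted p, against 1.11% and 0.355%.

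In the MATa D table Ty proximity moved with the values, and its part in them was not tested, with medians of 0.32 for tRNA gene NDRs within 500 bp of a Ty element or LTR, 0.04 for those farther away and 0.22 for other NDRs near such elements. The 44 with under 50% unique stretches reached 0.50. The calls in MATalpha G were TGA1 (tRNA-Ala), with 192 normalized reads in the targeted strain and 81.6 in the control (1.24, SE 0.27), and YNCP0019W (tRNA-Asn), with 129 and 58.1 (1.15, SE 0.28). Both NDRs overlap a Ty element or LTR, and none of their 50-base stretches occurred once in the reference.

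SUP61, the single gene for a tRNA-Ser that reads UCG, lies 24.5 kb from the MAT VP, and the NDR 109 bp before it is the only local tRNA gene NDR there. It was called in glucose in both mating types. In MATa it had 191 normalized reads in the targeted strain and 86.3 in the control (1.15, SE 0.27, adjusted p = 0.00488), and in MATalpha 94.4 and 41.4 (1.19, SE 0.29, adjusted p = 0.017). It was 0.25 (SE 0.23) in MATa G and 0.74 (SE 0.33) in MATalpha G, with no call. YNCC0014W, the tRNA-Thr gene that bounds the silent mating locus HMR, has 3 upstream NDRs, at 746, 316 and 96 bp and 91.5 to 92.1 kb from the VP. The nearest one had 50.7 normalized reads in the targeted strain and 34.0 in the control in MATa D (0.57, SE 0.33), and 69.6 and 57.5 in MATalpha D (0.28, SE 0.29). The NDR at 316 bp had 0.57 (SE 0.37) in MATa D and -0.17 (SE 0.29) in MATalpha D. The NDR at 746 bp had only 4.55 normalized reads in the targeted strain and 4.42 in the control in MATa D. None of the 3 was called in any of the 21 tables.

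The tests of the difference through separate controls gave few tRNA gene NDRs at MAT. Between MATa and MATalpha in glucose 0 differed, against 0.0207% of all NDRs, with 9 (3.72%) at unadjusted p under 0.05, all higher in MATa, against 1.31% of all NDRs higher in MATa and 0.249% lower. The median difference was 0.19, against 0.00 over all NDRs. Between MATa G and MATalpha G, both mixed cultures, 1 differed, against 0.0207%: TGA1, at -0.41 (SE 0.22) in MATa G and 1.24 in MATalpha G (difference -1.64, SE 0.35, adjusted p = 0.0131). Between MATa G and MATa D 0 differed, against 0.311% of all NDRs, and the median difference was -0.26. At unadjusted p, 2 (0.826%) were higher and 17 (7.02%) lower in MATa G, against 1.33% and 2.41% of all NDRs. Between MATalpha G and MATalpha D 0 differed, against 0.0207%, with 2 higher (0.826%) and 1 lower (0.413%) at unadjusted p, against 0.601% and 0.29%.

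After 1 h of induction, the NDRs beside tRNA genes were called mainly with the full array. With 4 LacO copies at YBP2, 1 of 238 was higher and 0 lower, against 0.125% and 0.0625% of all NDRs, with 3 above and 3 below 0 at unadjusted p under 0.05 (1.26% each, against 1.42% and 1.88%). The call was SUP2, with 102 normalized reads in the targeted strain and 50.6 in the control (1.01, SE 0.25). With 8 copies 0 were called in either direction, against 0% higher and 0.438% lower, and 0 above and 6 below 0 (2.52%) passed the unadjusted test, against 1.31% and 4.25%. With 16 copies 0 were called, against 0.0834% and 0.125%, and 3 above (1.26%) and 4 below 0 (1.68%) passed it, against 3.08% and 2.02%. With 256 copies 12 were higher (5.04%) and 5 lower (2.1%), against 4.48% and 3.21% of all NDRs, so both shares were near the background.

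Of the 12 higher NDRs at 256 copies, 9 lay within 500 bp of a Ty element or LTR, as did 62.4% of all 242. Under 50% unique stretches were found in 8 of the 12, against 18.2% of all 242 and 3.15% of all NDRs. The part of these features in the higher calls was not tested. The highest were beside YNCG0043C (1.58, SE 0.53), YNCN0011W (1.33, SE 0.24), YNCD0019C (1.31, SE 0.28) and YNCD0008W (1.30, SE 0.26), followed by IMT1 (1.17), YNCP0019W (1.10), YNCK0012C (1.07) and TGA1 (0.95). YNCG0043C rests on few reads, 9.80 in the targeted strain and 3.28 in the control. Those with a unique window included EMT5 and YNCK0011C, described above, and TRN1 (0.82) and SUP3 (0.72) were also called. The lower NDRs were beside YNCG0028W (-1.73, SE 0.26), YNCD0017W and YNCN0015W (-1.18 each), YNCP0010W (-0.90) and YNCM0029C (-0.85). The median of the tRNA gene NDRs was 0.08 at 256 copies, against -0.01 over all NDRs, and 0.00 with 4, 0.01 with 8 and -0.10 with 16 copies.

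The array length series was also read at the local NDR beside YNCG0018C, 15.0 kb from YBP2. Its log2 fold changes after 1 h were 0.78 (SE 0.18) with 4, 1.05 with 8, 0.38 with 16 and 0.32 (SE 0.21) with 256 copies, and only the first was called. After 2 h with 256 copies it was 1.91. The difference between 2 h and 1 h with 256 copies, through separate controls, was 1.60 (SE 0.28, adjusted p = 4.97e-06). Over all 242 NDRs, 2 were higher and 3 lower at 2 h than at 1 h, against 1.82% of all NDRs that differed in either direction. YNCG0028W was the other higher one (1.41, SE 0.35). YNCD0008W (-1.40, SE 0.35), YNCN0011W (-1.53, SE 0.32) and YNCG0043C (-2.24, SE 0.63) were lower at 2 h. The median difference was -0.22, and 68.6% of the tRNA gene NDRs were below 0, against 48.3% of all NDRs.

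The level of methylated DNA beside tRNA genes varied widely between NDRs. Averaged over the 11 VPs at 2 h, the highest base means were 823 normalized reads beside YNCK0011C, 733 beside the tyrosine suppressor gene SUP3 (141 bp), 597 beside YNCG0018C, 425 at the nearer EMT5 NDR and 331 beside YNCG0034W (94 bp). The lowest were 2.97 beside YNCO0013C, 3.89 beside YNCO0012C, 4.84 beside YNCK0010W, 4.87 at the NDR 650 bp before YNCK0014W and 4.95 beside YNCD0029C. The mean of YNCK0011C includes its local base means of 3159 at LHS1 and 1847 at MNR2, whereas SUP3 lay between 202 and 854 in all 21 tables. The NDRs beside SUP3 and YNCG0034W, close to their genes, were among those with the highest levels and were not called at any of the 11 VPs. The median base mean of the tRNA gene NDRs was below that of all NDRs in 19 of the 21 tables, for example 29.8 and 36.9 at SHC1, and above it in MATa D (24.97 and 23.4) and MATa G (39.2 and 32.0).

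By isotype, the median over all pairs of NDR and the 11 VPs was below 0 for most of the 20 isotypes. It was lowest for tRNA-Cys (-0.36, a single NDR), tRNA-Ile (-0.35, 10 NDRs) and tRNA-His (-0.34, 9 NDRs), and highest for tRNA-Met (0.20, 6 NDRs), whose NDRs include those of EMT5 and IMT2. tRNA-Gln (0.07, 8 NDRs) and tRNA-Ala (0.01, 11 NDRs) were also above 0. NDRs beside 1 gene share its surroundings, so these groups hold few separate sites.

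Other genes of the Pol III pathway were read from lists chosen by function, again as NDRs at most 1 kb upstream. Of the 10 other Pol III genes, 5 had an NDR, and 3 of 105 pairs of NDR and table were called higher and 0 lower. All 3 were the NDR before RDN5-4, a 5S ribosomal RNA gene, at 0.71 (YBP2), 0.89 (CDC43) and 1.17 (YBP2 256 copies, 1 h). For the 22 genes of Pol III and its factors, 1 call was higher, RPC31 at LHS1 (0.78), and 1 lower, RPC11 at YBP2 after 1 h with 256 copies (-1.31), in 546 pairs. For the 11 condensin and cohesin genes, 2 of 336 pairs were called higher and 0 lower, both at SMC1, at SHC1 (1.03) and LHS1 (0.93). For the 11 tRNA processing and export genes, 3 of 231 pairs were higher, all at the exportin gene MSN5 (0.77 to 0.93), and 1 lower, at CCA1 (-1.39). Over all NDRs, 1.21% of the pairs of NDR and table were called higher and 0.427% lower. The medians of these lists ranged from -0.40 to 0.24 over the 21 tables, on either side of 0.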

How the data were processed

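MeDIP libraries (2 per group) were compared between targeted and control strains. Per the labels' processing notes and the methods, the authors trimmed reads with fastp 0.23.2, aligned them to sacCer3 with BWA 0.7.17, removed duplicates with Picard, counted reads per NDR with featureCounts 2.0.3 and ran DESeq2 1.38.0. The deposited tables hold for each NDR the base mean, a signal of normalized reads averaged over both groups, and the log2 fold change with its SE on the log2 scale. They hold no value per library, so no library could be inspected. Sums of base mean over all NDRs ran from 168457 to 477468. These sums are normalized and pooled over both groups, so they do not show the depth of targeted and control libraries. The paper lists uniquely mapped reads per library. There, each library of the shared 2 h control had more reads than any targeted library compared with it. At 1 h, each library with 256 LacO copies had more reads than its control libraries. The part of this imbalance in the base mean trend and in the log2 fold changes was not tested. The authors' Wald statistics, p-values and adjusted p-values were not used.

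Each log2 fold change was divided by its SE, a normal p for both sides was taken, and it was adjusted by Benjamini and Hochberg over all NDRs of a table (Python 3.11.15, scipy 1.17.1, pandas 2.3.3, numpy 2.4.6). Calls needed a log2 fold change beyond 0.7 and an adjusted p under 0.05. Differences between 2 tables were divided by the root of their summed squared SEs. Both tests were checked on simulated data with a log2 fold change of 2 in 200 NDRs. The call found 200 of them for YBP2 (4828 NDRs) and 200 for TRP2 -met (4827), and the test of a difference 180 and 200. Unchanged NDRs that passed were 8 and 4 for the call and 6 and 5 for the difference. The noise was normal and drawn from the deposited SEs, so the check cannot speak to moderated values or to effects near the cutoff. The methods call the 2 libraries of a group biological replicates. Levels per strain were computed as the pair of values with that mean and ratio. They are approximate, because the median SE at base means under 3 (0.13 in TRP2 -met) could be below that at base means of 30 or more (0.22), which may reflect moderated fold changes. Moderation would also bear on the recomputed p and on the fold change cutoff. Derived control levels were correlated (Pearson) by at least 0.997 within the 11 VPs' tables, by at least 0.994 within the YBP2 1 h tables, and by at most 0.979 between the 8 control sets. NDRs without an SE (1 in MATa D, 3 in MATalpha G and 1 in TRP2 -met) were left out. VP positions were the sites given for YBP2, PUS2 and OLE1 and otherwise the middle of the named gene (TAF2 for MAT).

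tRNA genes and sequences were taken from RefSeq R64. W303 can differ from it, above all at Ty elements. The NDRs' ends are not in the tables, so windows of fixed length after the start were used. NDRs are named by the nearest tRNA gene. Named were those called in 3 or more tables, the 3 highest and 3 lowest called in each table, local calls, those that differed in a contrast, the 5 highest and 5 lowest by base mean, and the tRNA gene at HMR; the further calls were named after their values were seen. The members, lists and distance zones were chosen with earlier results of these data known. Alternatives covered the cutoffs, a base mean minimum, the window, the local distance, a base mean trend and shared promoters. Libraries of Mlp1 fusions, free M.CviPI and MLP1/MLP2 mutants were not used here.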

Additional observations from a re-analysis of the deposited data

Results flagged for a closer look

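The difference between 2 conditions, each read against its own control, passed the test for 6 NDRs beside tRNA genes. Between the galactose cultures it was 1 of 242, against 0.0207% of all NDRs. Between 2 h and 1 h it was 5 of 242, against 1.82% of all NDRs, so these 5 are listed for their size and not as an excess. The NDR beside TGA1 (tRNA-Ala) had a difference of -1.64 between the galactose cultures that started as MATa and as MATalpha. Between 2 h and 1 h of induction at YBP2 with 256 LacO copies, the differences were 1.60 beside YNCG0018C (tRNA-Val), which is local to the VP, and 1.41 beside YNCG0028W (tRNA-Leu). They were -1.40 beside YNCD0008W (tRNA-Leu), -1.53 beside YNCN0011W (tRNA-Pro) and -2.24 beside YNCG0043C (tRNA-Gly). YNCG0043C had a base mean of 6.54 normalized reads at 1 h, and its difference no longer passed with the base mean trend removed.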

How the results depend on the processing

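No paired analysis was possible because the tables hold no value per library, and for the same reason no library could be left out in turn. For the 11 VPs at 2 h (22 higher and 23 lower calls), a cutoff of 1 gave 4 and 4. An NDR window of 1 kb on either side of the gene, which held 405 NDRs, gave 64 and 38. The 74 NDRs with no protein-coding gene start within 1 kb gave 3 and 6. The 500 bp window gave 9 higher calls, and an adjusted p under 0.01 gave 2 lower calls. Removing the trend with base mean gave 3 higher and 38 lower calls. The counts in this paragraph are given without the share over all NDRs under the same setting. For TRP2 (1 and 1), the higher count was 0 with the cutoff of 1, the 500 bp window, the trend removed or no protein-coding gene start, and the lower count 0 with the 500 bp window or no protein-coding gene start. For MAT (2 higher), the counts were 1 with adjusted p under 0.01, 0 with the 500 bp window or no protein-coding gene start, and 6 with the trend removed. For YBP2 at 1 h (13 and 5), they were 8 and 3 with the cutoff of 1, 7 and 3 with adjusted p under 0.01, 5 and 2 with the 500 bp window, 6 and 8 with the trend removed, and 2 and 1 with no protein-coding gene start; the lower count was 8 with the 2 kb window and 10 with either side. Between MATa and MATalpha in G (1 NDR), adjusted p under 0.01, the 500 bp window or no protein-coding gene start gave 0, and the trend removed gave 2 (TGA1 and YNCP0019W). The same pair was called between galactose and glucose in MATa with the trend removed, where the count was 2 in place of 0. Between 2 h and 1 h (5 NDRs), the 500 bp window and no protein-coding gene start gave 2, the 2 kb window 8 and either side 10. The 63 medians recomputed with other windows or without shared promoters moved by 0.22 at most, and 1 changed sign. With no protein-coding gene start, the medians were -0.39 at OLE1 (-0.23 over all 242), -0.42 at LSM4 (-0.26), 0.38 in MATa D (0.15) and -0.21 with 16 copies after 1 h (-0.10). Of the 78 calls, 48 were lost with the cutoff of 1, 37 with adjusted p under 0.01 and 38 with the trend removed, and no call changed sign. With a base mean of at least 10, all 76 calls that could be tested held. Precision is limited by 2 libraries per group and medians of 12.1 to 42.2 normalized reads beside tRNA genes.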
